A study of Mus musculus with 50 samples.

Results

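The tumours compared here are 50 MMTV-ErbB2 mouse mammary tumours, divided by their level of 2610507I01Rik, a long non-coding RNA gene of chromosome 11. The members were chosen by the measured level of this gene. The 28 tumours with 2610507I01Rik at or above 6.7 on the log2 scale form the higher set and the 22 tumours below 6.7 form the lower set. Each tumour is a biopsy from a female mouse, taken before drug treatment and measured on 1 Affymetrix expression array. The MMTV promoter, taken from a mouse mammary tumour virus, directs the ErbB2 growth factor receptor to mammary epithelial cells. C57BL/6J x FVB/NJ hybrids had been crossed back to FVB/NJ MMTV-Erbb2 animals to obtain these mice. Both sets share the transgene, the cross, the sex and the tissue, and they differ by no label. The age of the mice and the genotype of each mouse were not analysed here. The drug is docetaxel in the sample labels and doxorubicin in the series title.

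In a backcross of this kind a mouse carries, at any autosomal locus, either a pair of FVB/NJ alleles or 1 allele of each strain. Genes close together on a chromosome tend to be inherited together, while genes of other chromosomes are inherited independently. A long non-coding RNA is a transcript without a known protein product. Some such transcripts act on chromatin or on RNA stability, and many have no assigned role. Chromosome 11 of the mouse also holds Erbb2 itself, Brca1, Stat3, Stat5a and Stat5b, the type I keratins, several chemokine genes and a group of interferon-inducible GTPases.

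In the gene order of RefSeq, 2610507I01Rik lies between Guk1, which codes for guanylate kinase, and Mrpl55, which codes for a protein of the large mitochondrial ribosome subunit. It starts head to head with Mrpl55, and 54 bases separate the annotated starts. The stretch is shown because the large difference between tumours lies on one side of it. It is chr11:59202382-59202485 of GRCm38.p6 (RefSeq), minus strand, 5′ to 3′, with the bases between both starts in capitals and the first 50 bases of 2610507I01Rik in lower case.
2610507I01Rik: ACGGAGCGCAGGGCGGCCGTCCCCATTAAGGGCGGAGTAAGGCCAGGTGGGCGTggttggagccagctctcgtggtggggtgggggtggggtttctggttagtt
The stretch between the starts held 2 GC boxes (letters GGGCGG, either strand), a motif present in 35.7% of 32851 RefSeq windows of 300 bases around gene starts. The whole window of 2610507I01Rik held 25 CG pairs against a median of 7 over all windows. It held no TATA box (letters TATAAA), which 13.6% of windows held on either strand. The CCAAT box (letters CCAAT) was also not in it and was in 37.4% of windows. Neither the E-box (letters CACGTG, in 7.15% of windows) nor the cAMP response element (letters TGACGTCA, in 1.79%) was found in it.

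The level of 2610507I01Rik had 2 clearly separate ranges. In the higher set it ran from a lowest value of 6.82 through a median of 7.495 to a highest value of 8.06 log2, with a mean of 7.52 ± 0.27 (SD, n = 28). In the lower set it ran from 4.67 through a median of 5.36 to 6.10, with a mean of 5.42 ± 0.40 (SD, n = 22). The means lay 2.11 log2 apart, which is 4.30-fold. These values chose the sets, so they are a description and carry no test. The members nearest to the threshold were mid79 at 6.82 and mid71 at 7.04 above it, and mid117 at 6.10 and mid99 at 6.0 below it. The gap of 0.72 between mid117 and mid79 was wider than any gap inside a set, which reached 0.36 in the lower set and 0.22 in the higher set. A mixture of 2 normal components placed all 50 tumours in the same sets. It was fitted to these same values with the number of components set to 2, so it adds no separate support for the division. The lower set's mean was above 4.09 log2, the mean below which a gene was left out of the tests. Signals of single probes were not analysed, so whether every probe follows these levels was not tested.

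**Figure D1:**
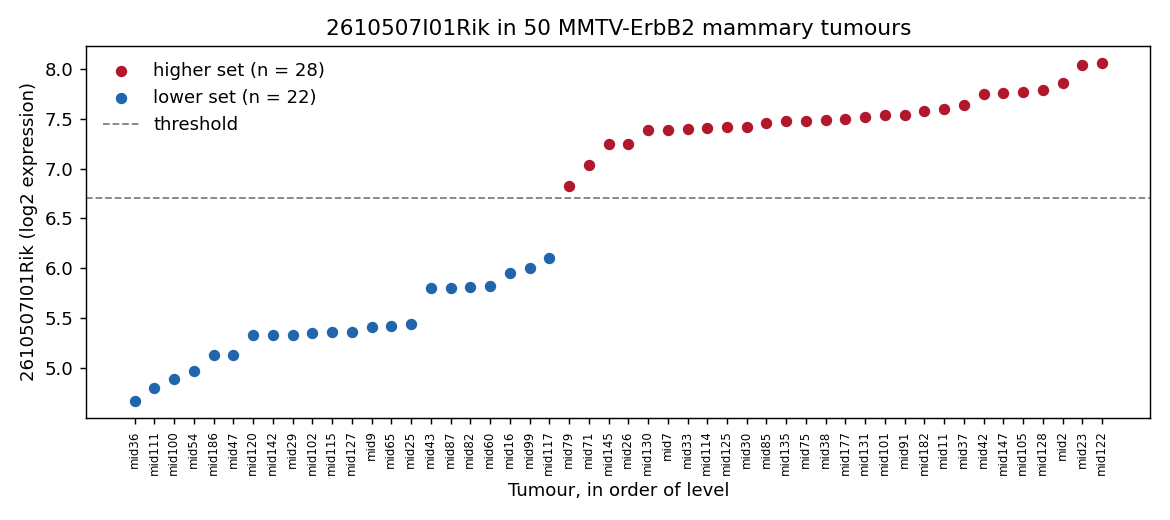
The level of 2610507I01Rik (vertical axis, log2 expression) in each of the 50 tumours in order of level, with the threshold of 6.7 as a dashed line. The 22 tumours of the lower set end at 6.10 and the 28 tumours of the higher set begin at 6.82.

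The arrays of both sets were alike in quality apart from 3 arrays with a mean correlation with the other arrays under 0.96. Of these, mid79 lay in the higher set and mid60 and mid100 in the lower set. The median of this correlation was 0.978 in both sets. The labels name no batch. Each array is a separate tumour, and p values set a difference against the spread between tumours. In these bulk samples fewer cells of a type and less RNA per cell cannot be told apart.

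Beyond 2610507I01Rik, 1 gene of 18044 passed the test between the sets, which is 0.00554% of those tested, and no tested gene had sets that did not overlap (0%). It was Sap30l, a chromosome 11 gene whose product resembles SAP30, a subunit of the Sin3 histone deacetylase complex. The test was limma's moderated test over all tested genes, with Benjamini-Hochberg adjustment and a threshold of 0.05. Of 1465 other chromosome 11 genes 1 was higher and 0 were lower (0.0683% in all), and of 16436 genes on other chromosomes 0 passed in either direction (0%). At an unadjusted p under 0.05 there were 70 chromosome 11 genes (4.78%), 43 higher (2.94%) and 27 lower (1.84%). There were 481 such genes on other chromosomes (2.93%), 247 higher (1.5%) and 234 lower (1.42%). Over all tested genes there were 552 (3.06%), 290 higher (1.61%) and 262 lower (1.45%).

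Sap30l was higher in the tumours with more 2610507I01Rik. In the higher set its lowest, median and highest values were 7.15, 7.37 and 7.75 log2, and in the lower set 6.71, 7.11 and 7.29. The sets overlapped between 7.15 and 7.29, with 19 of 28 tumours of the higher set above every tumour of the lower set and 12 of 22 tumours of the lower set below every tumour of the higher set. The difference was 0.32 log2 (SE 0.05, 95% interval 0.23 to 0.42), or 1.25-fold, with an adjusted p of 0.000117 by limma. With scores of fibroblast, endothelial, adipocyte and macrophage genes as covariates it was 0.32 (adjusted p = 0.00163 by limma), and without mid60, mid79 and mid100 it was 0.29 (adjusted p = 0.00144 by limma). Inside the sets Sap30l was not called with the level of 2610507I01Rik, with a slope of -0.05 log2 per log2 (SE 0.07, adjusted p = 0.774 by limma).

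Sap30l lies on the side of Guk1, with 79 genes of the RefSeq table and 36 tested genes between it and 2610507I01Rik. The bases before its start are shown because it is the 1 named gene that passed. They are chr11:57801387-57801636 of GRCm38.p6 (RefSeq), plus strand, 5′ to 3′, with a GC box in capitals.
Sap30l: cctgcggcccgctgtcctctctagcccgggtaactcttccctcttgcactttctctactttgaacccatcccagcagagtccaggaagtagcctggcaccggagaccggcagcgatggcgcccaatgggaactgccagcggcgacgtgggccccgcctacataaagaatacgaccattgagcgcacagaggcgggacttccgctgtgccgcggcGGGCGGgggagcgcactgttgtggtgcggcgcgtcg
The window of 300 bases around the start of Sap30l held 33 CG pairs and 4 GC boxes, of which 1 lies in the 250 bases shown. It held 1 CCAAT box and no TATA box.

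The genes beside 2610507I01Rik differed little. Among the 10 nearest genes of the RefSeq table on each side 12 were tested and 0 passed, with differences between -0.11 and 0.27 log2. Mrpl55, across the short stretch shown above, had lowest, median and highest values of 7.41, 7.70 and 8.03 in the higher set and 7.29, 7.61 and 8.20 in the lower set. Its difference was 0.10 log2 (95% interval 0.0008 to 0.21, unadjusted p = 0.0483 by limma), and the ranges of the sets overlapped almost fully. Guk1 had values of 7.11, 7.28 and 7.53 in the higher set and 6.96, 7.24 and 7.39 in the lower set, a difference of 0.08 (95% interval 0.01 to 0.16). At an unadjusted p under 0.05 by limma there were 4 higher neighbours and 1 lower of 12, against 3.06% of all tested genes.

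The other neighbours carry a range of functions. Trim11 and Trim17 code for ubiquitin ligases of the TRIM family and gave differences of 0.16 (95% interval 0.01 to 0.32) and -0.11 (-0.20 to -0.02). H2aw, which codes for an H2A histone, gave 0.27 (0.03 to 0.50). Arf1, a GTPase of Golgi coat formation, gave -0.02 (-0.12 to 0.08). The Wnt ligand genes Wnt3a and Wnt9a gave -0.0031 (-0.07 to 0.07) and -0.06 (-0.18 to 0.05). Snap47, a SNARE protein, gave 0.04, Prss38, a serine protease, 0.01, Jmjd4, a hydroxylase, -0.0045 and 2310033P09Rik 0.0006. The widest bound of these intervals was 0.503, for H2aw.

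**Figure D2:**
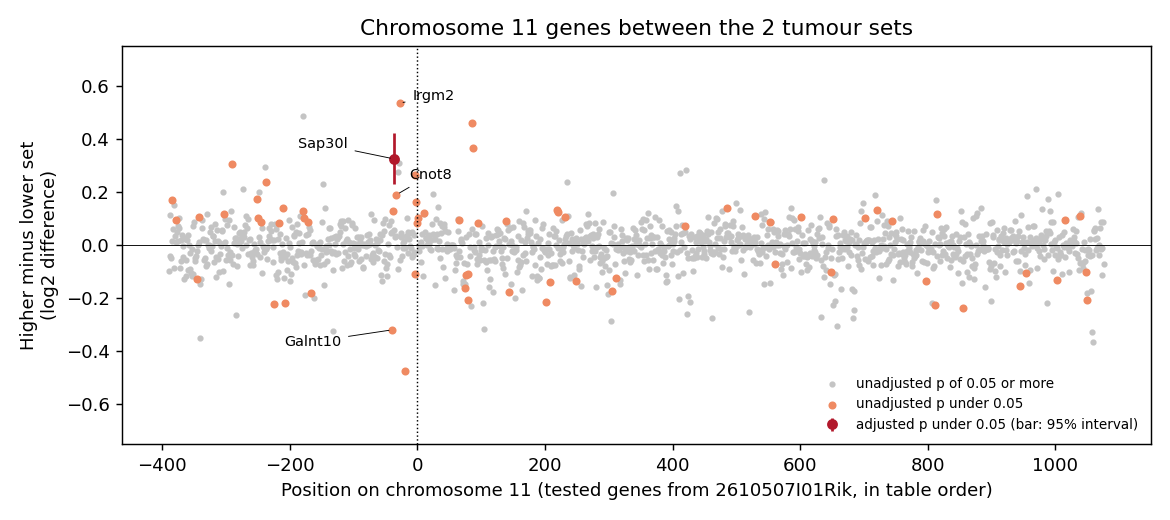
Difference between the sets (vertical axis, higher minus lower, log2) for 1465 chromosome 11 genes in table order, counted in tested genes from 2610507I01Rik (horizontal axis, 0). Sap30l, at 0.32 with its 95% interval, is the 1 gene with an adjusted p under 0.05, and unadjusted p values under 0.05 lie along the whole chromosome.

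Around Sap30l, 4 of the 20 nearest tested genes had an unadjusted p under 0.05 by limma, against 3.06% of all tested genes. An adjusted p under 0.05 was found for 0 of these 20 genes. Cnot8, a deadenylase subunit of the CCR4-NOT complex, had lowest, median and highest values of 7.82, 8.29 and 8.57 in the higher set and 7.76, 8.05 and 8.41 in the lower set. Its difference was 0.19 log2 (95% interval 0.09 to 0.29, unadjusted p = 0.000241, adjusted p = 0.999 by limma), and the sets overlapped over most of their range. Galnt10, which starts O-glycan chains on proteins, was at 7.05, 8.11 and 8.47 in the higher set and 7.39, 8.46 and 9.13 in the lower set, a difference of -0.32 (95% interval -0.53 to -0.10). The non-coding gene 2010001A14Rik, next to Sap30l, was at 4.75, 5.14 and 5.43 in the higher set and 4.80, 5.02 and 5.35 in the lower set, a difference of 0.13 (95% interval 0.04 to 0.22). Of the 36 tested genes between Sap30l and 2610507I01Rik 0 passed by limma, and the median difference was 0.03. At an unadjusted p under 0.05 by limma 5 were higher and 2 lower, against 1.61% and 1.45% of all tested genes. Hand1, a transcription factor, Larp1, an RNA-binding protein, and Gemin5, a subunit of the SMN complex, gave 0.06, 0.03 and -0.0081.

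**Figure D3:**
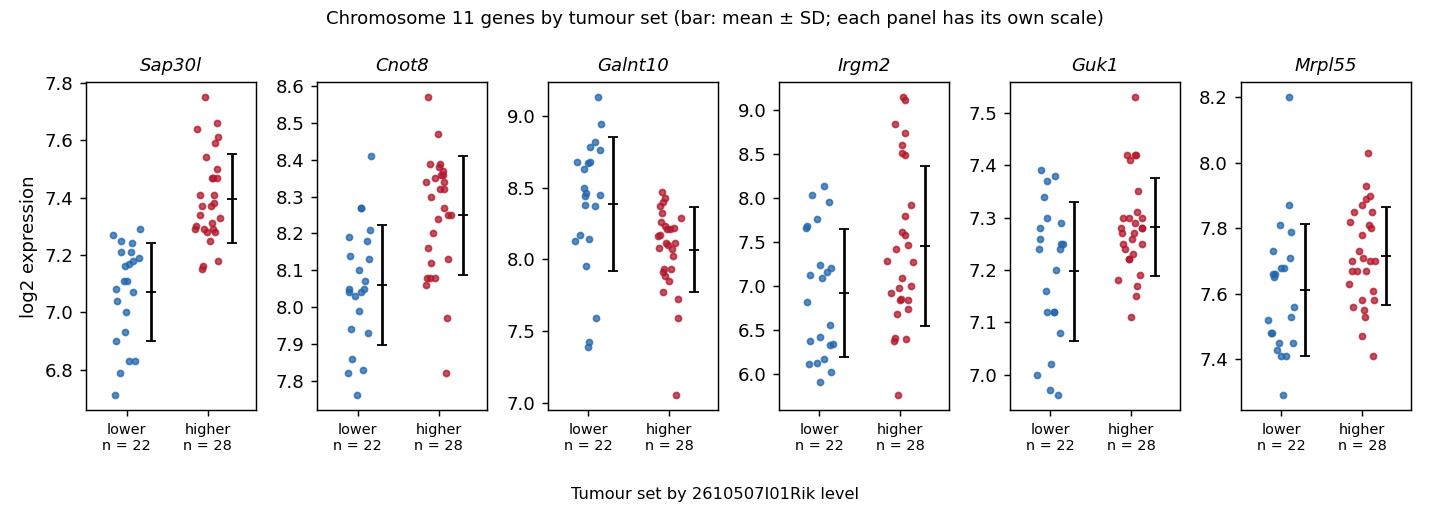
Log2 expression of 6 chromosome 11 genes in each tumour of the lower set (n = 22) and the higher set (n = 28), with the mean ± SD as a bar beside the points and a scale of its own for each panel. Sap30l has the least overlap, from 7.15 to 7.29, and the other 5 genes overlap over most of their range.

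The share of genes with an unadjusted p under 0.05 was 14% of the 50 tested genes at up to 25 places from 2610507I01Rik on either side and 10% of the 50 at 26 to 50 places. It was 8% of the 100 at 51 to 100 places and 3% of the next 200. Further out it was 5.66% of 389 genes at up to 400 places and 3.25% of 676 beyond. These shares are a description, since neighbouring genes are not independent, and the 2 sides differed. On the side of Sap30l the share was 20% of 25 genes at up to 25 places. It was also 20% of 25 genes at 26 to 50 places, with Sap30l itself among them. On the other side these shares were 8% and 0% of 25 genes. At 51 to 100 places 0 of 50 genes had such a p on the side of Sap30l, against 8 of 50 on the other side. The median absolute difference was 0.03 log2 in the nearest bin and 0.04 in the farthest. Chromosome 18 had a share of 6.81% over 455 genes, above the 4.78% of chromosome 11, and chromosome Y 1 of 7 genes.

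A gene below the limit on low values also stood out when that limit was dropped. Lyrm7, a chromosome 11 gene for an assembly factor of mitochondrial complex III, averaged 4.0 log2 over all tumours. It was at 3.82, 4.11 and 4.53 (lowest, median, highest) in the higher set and 3.58, 3.81 and 4.20 in the lower set, with 10 of 28 tumours of the higher set above every tumour of the lower set. The difference was 0.28 log2 (SE 0.05, 95% interval 0.18 to 0.38, adjusted p = 0.00459 by limma over all genes with no limit). Lyrm7 lies 59 tested genes from 2610507I01Rik on the same side as Sap30l.

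Among probe sets that name no gene, 2 of 5371 passed (0.0372%) in a limma fit over all 25854 probe sets, where 3 passed in all (0.0116%). This fit was chosen after seeing the data. Probe set 17248348 had lowest, median and highest values of 5.24, 9.15 and 9.68 log2 in the higher set and 5.47, 6.02 and 9.17 in the lower set. The difference was 2.31 log2 (95% interval 1.65 to 2.96, adjusted p = 5.43e-05 by limma), or 4.95-fold. Its values fell into 2 ranges with nothing between 6.62 and 8.63. In the upper range were 25 of 28 tumours of the higher set and 4 of 22 of the lower set, so 7 tumours did not follow 2610507I01Rik: mid42, mid75 and mid122 of the higher set and mid36, mid60, mid65 and mid117 of the lower set. Probe set 17249962 was lower where 2610507I01Rik was higher, at 5.10, 5.71 and 6.11 in the higher set and 5.27, 6.18 and 7.10 in the lower set. Its difference was -0.58 log2 (95% interval -0.78 to -0.39, adjusted p = 0.00199 by limma). On normal scores of ranks neither probe set passed (adjusted p = 0.271 and 0.123 by limma). Their place in the genome is not given in the annotation used here. By number, 17249962 falls between the probe sets of the chromosome 11 genes Cnot8 (17249950) and Mrpl22 (17249965). In the same way 17248348 falls between those of Ubtd2 (17248304) and Slu7 (17248592), also on chromosome 11. Whether probe set numbers follow the genome was not tested, so linkage of these 2 probe sets to 2610507I01Rik was not tested either.

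**Figure D4:**
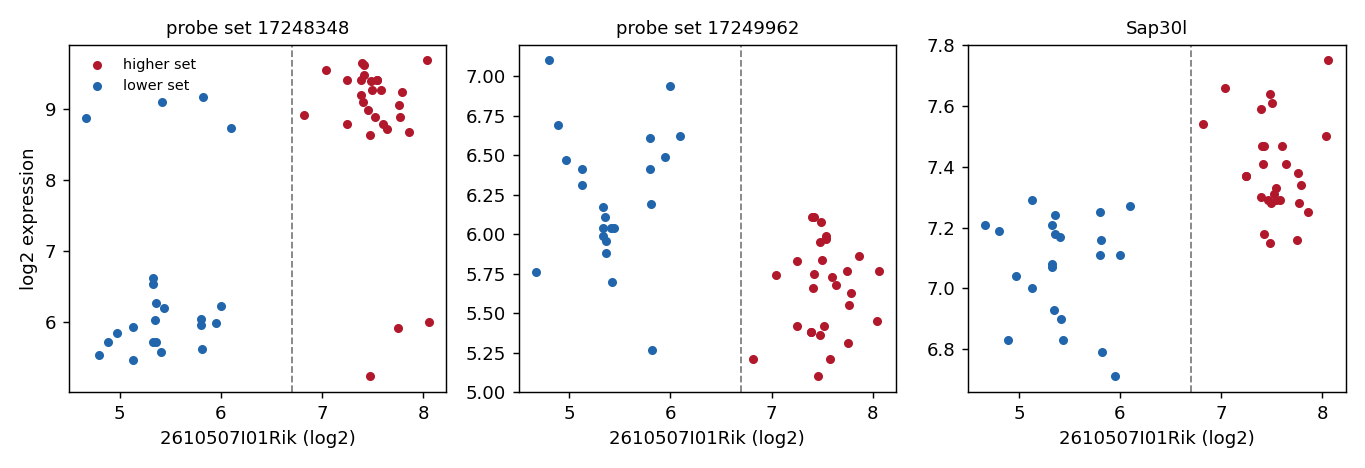
Log2 expression of probe sets 17248348 and 17249962 and of Sap30l (vertical axes) against the level of 2610507I01Rik (horizontal axis, log2) in 50 tumours, with the threshold of 6.7 dashed. Probe set 17248348 has 2 ranges, and 7 tumours lie on the other side from their set, while the sets of Sap30l differ by 0.32.

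Over the 50 tumours, the gene most like 2610507I01Rik by absolute Pearson r was Sap30l at r = 0.658. The next were Htr7, a serotonin receptor gene of chromosome 19, at r = -0.549 and Cnot8 at r = 0.516. These correlations are descriptions over tumours in 2 separate ranges, of arrays normalized together. Htr7 was at 3.88, 4.08 and 4.29 (lowest, median, highest) in the higher set and 3.99, 4.20 and 4.55 in the lower set, and its difference of -0.12 did not pass (adjusted p = 0.999 by limma).

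For the rest of the genome the differences were small and their intervals narrow. The median absolute difference of unlinked genes was 0.04 log2, and 95% of the differences lay between -0.19 and 0.17. The 95% interval, not adjusted for the number of genes, lay inside a 2-fold change in either direction for 16358 of 16436 unlinked genes (99.5%). It lay there for 1463 of 1465 chromosome 11 genes (99.9%). The 1 gene with a difference over 1 log2, named after its value was seen, was the secretoglobin gene Scgb1b27. It ran from 4.87 through 8.24 to 12.81 in the higher set and from 4.62 through 6.88 to 12.24 in the lower set, and its difference of 1.28 had a 95% interval from -0.08 to 2.64.

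For ErbB2 and its receptor family the differences were within the spread between tumours. Erbb2, on chromosome 11, was at 9.25, 11.73 and 11.94 log2 in the higher set and 9.02, 11.70 and 11.94 in the lower set. All the tumours carry the ErbB2 transgene, and its part in this signal was not tested. The difference of Erbb2 is therefore not read as that of the chromosome 11 gene alone. The difference was 0.04 (95% interval -0.26 to 0.34), without mid60, mid79 and mid100 it was -0.0050, and with array weights it was -0.0062. It was 0.17 with the cell type covariates and 0.13 without mid79 alone, so its size and sign depended on the setting, and it was called in none of them. Egfr, also on chromosome 11, gave 0.01 (-0.18 to 0.19), the kinase-impaired receptor Erbb3 0.01 (-0.33 to 0.35), the adaptor Grb7 0.07 (-0.20 to 0.33) and Erbb4, which varies widely between tumours, -0.33 (-1.01 to 0.36). None of these 5 genes had an unadjusted p under 0.05 by limma.

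On chromosome 11, 0 of 24 tested tumour and mammary genes passed, 0 had an unadjusted p under 0.05 by limma, and the median difference was 0.01 against 0.0029 over all tested genes. The repair gene Brca1 gave 0.09 (95% interval -0.14 to 0.32), Brip1, its partner helicase, 0.11 (-0.10 to 0.32) and Rad51c 0.05 (-0.10 to 0.20). Top2a, the topoisomerase that doxorubicin poisons, gave 0.08 (-0.27 to 0.42), and Birc5, the apoptosis inhibitor survivin, 0.13 (-0.17 to 0.44). Nf1, which switches off Ras, gave 0.07 (-0.17 to 0.31), the kinase gene Map2k4 -0.05 (-0.13 to 0.03), the Wnt target Axin2 -0.14 (-0.32 to 0.04) and the NF-kappaB subunit Rel 0.20 (-0.14 to 0.55). The other 15 members, with Erbb2, Egfr and Grb7 among them, lay between -0.05 and 0.08. Of the STAT genes, which carry prolactin and cytokine signals, Stat3 gave 0.02 (-0.12 to 0.15), Stat5a -0.06 (-0.27 to 0.15) and Stat5b 0.02 (-0.15 to 0.19).

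The immunity-related GTPases are interferon-inducible proteins of cell-autonomous defence, and several of their genes lie between Sap30l and 2610507I01Rik. Of 7 tested members 0 passed and 1, Irgm2, had an unadjusted p under 0.05 by limma, against 3.06% of all tested genes. The median difference of the members was 0.27 log2. Irgm2 was at 5.76, 7.29 and 9.15 in the higher set and 5.91, 6.96 and 8.14 in the lower set, a difference of 0.53 (95% interval 0.07 to 1.0, adjusted p = 0.999 by limma). The ranges of the sets overlapped, and 0.53 was the largest positive difference among the tested chromosome 11 genes other than 2610507I01Rik. Its neighbours Igtp and Gm12250 gave 0.31 (-0.24 to 0.86) and 0.27 (-0.29 to 0.84), Irgm1 0.23 (-0.09 to 0.55) and Iigp1, on chromosome 18, 0.59 (-0.14 to 1.33). Gm12185 gave -0.07 and Gm5431 -0.15.

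No interferon response gene passed. All 20 tested members had a positive difference, with a median of 0.19 log2, and 0 had an unadjusted p under 0.05 by limma. Ifit3, an antiviral protein gene, gave 0.08 (95% interval -0.04 to 0.19) and Stat2, which carries the interferon signal, 0.30 (-0.15 to 0.75). Of 9 tested MHC class I presentation genes 8 were positive, with a median of 0.16, and the peptide transporter genes Tap2 and Tap1 gave 0.16 (-0.01 to 0.32) and 0.28 (-0.15 to 0.70). Whether members of these lists vary together between tumours was not tested, so a shared sign is not read as separate observations. The part of these genes in the difference of Irgm2 was not tested. The Schlafen genes, another interferon-inducible family on chromosome 11, had a median of 0.07 over 7 members. Slfn3 gave 0.27, Slfn5 0.15, Slfn2 0.13, Slfn8 0.07, Slfn14 0.04, Slfn1 -0.12 and Slfn4 -0.20, and 0 had an unadjusted p under 0.05.

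Markers of cells and cell states were compared in the same fit. Over all 27 lists 299 genes were tested, 0 passed, and 1 had an unadjusted p under 0.05 by limma, against 3.06% of all tested genes. Adipocyte genes had the highest list median, 0.28 log2 over 10 members, all positive, with Cidec, a lipid droplet protein gene, at 0.43 (95% interval -0.13 to 0.99) and the hormone resistin (Retn) at 0.40 (-0.18 to 0.97). Muscle genes had the lowest, -0.19 over 11 members, all negative, with Acta1, skeletal actin, at -0.35 (-1.12 to 0.43) and the myosin gene Myh1 at -0.32 (-0.99 to 0.35). Skin genes had a median of -0.19 over 10 members, with Flg, filaggrin, at -0.13 and Ivl, involucrin, at -0.17. Without mid60, mid79 and mid100 these medians were 0.17 for adipocyte, 0.03 for muscle and 0.0048 for skin genes, so those of muscle and skin turned from negative to positive. The medians of type I keratins (0.02), chemokines (0.04), macrophage (0.03), luminal (0.05) and endothelial genes (0.0066) also turned positive then. Those of STAT (-0.0094), T and NK cell (-0.0027), B cell (-0.01) and nerve genes (-0.0059) turned negative. The fibroblast median was then -0.01, the basal median -0.10 and the milk median 0.16. Of the 10 adipocyte genes 4 then had an unadjusted p under 0.05 and a positive difference, where 324 of all 18044 tested genes were higher and 325 lower at that p, and the median of interferon genes was 0.32, with 1 gene under 0.05.

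Epithelial and state lists also held 0 called genes. The 14 luminal genes had -0.05 log2, with the progesterone receptor gene Pgr at -0.12 and the keratin gene Krt19 at -0.17. The 9 basal genes had -0.18, with Trp63 at -0.21 (95% interval -0.45 to 0.03) and Krt17 at -0.24 (-0.56 to 0.07). The 23 proliferation genes had 0.08, with 21 positive, and Cenpa, a centromere histone, and the mitotic kinase Aurka gave 0.14 and 0.16. The 12 milk genes had 0.04, with Xdh, a milk fat globule enzyme, at 0.30 (-0.0003 to 0.61) and Mfge8 at -0.39 (-0.95 to 0.16). The 13 hypoxia genes had 0.11, with Pdk1 at 0.21 and Vegfa at 0.20, and the 15 ribosomal protein genes -0.03, with Rpl3 at -0.14 and Rps6 at -0.09.

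Lists of immune and stromal cells were also without a call. The 14 T and NK cell genes had a median of 0.0032 log2, with Cd3e at 0.19 and Prf1, perforin, at -0.07, and the 10 B cell genes 0.0064, with Pax5 at 0.11 and Blk at 0.08. The 16 macrophage genes had -0.09, with Lyz2, lysozyme, at -0.40 (95% interval -0.83 to 0.03) and Msr1 at -0.25. The 7 neutrophil genes had -0.0043, with S100a9 at -0.20 and Csf3r at -0.16. The 15 fibroblast genes had -0.14, with Thy1 at -0.19 and Pdgfrb at -0.17, the 13 endothelial genes -0.02, with Emcn at -0.30 and Cldn5 at 0.13, and the 4 nerve genes 0.08, with Mbp at 0.10 and Cdh19 at 0.13. On chromosome 11 the 11 chemokine genes had -0.05, with Ccl5 at 0.28 and Ccl7 at -0.14, the 12 type I keratins -0.17, with Krt25 at -0.23, and the 9 Hoxb genes -0.03, with Hoxb5 at -0.09 and Hoxb13 at 0.05. For some of these genes the set medians lay closer than the means. Krt25 had medians of 4.115 (higher set) and 4.155 (lower set), and its highest value, 8.16, was in the lower set. S100a9 had medians of 4.01 and 3.97, with a highest value of 8.07 in the lower set. Cldn5 had medians of 5.12 and 5.11, with a highest value of 9.58 in the higher set.

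**Figure D5:**
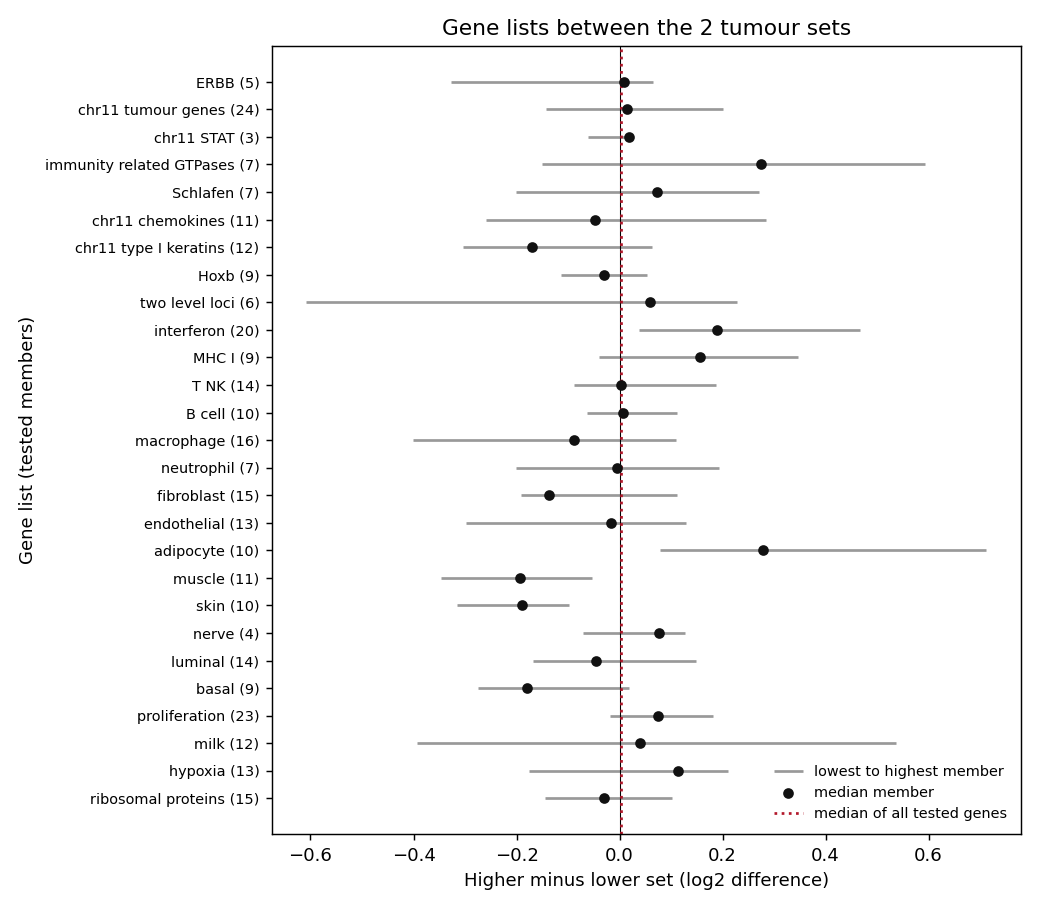
Median difference between the sets (black point, higher minus lower, log2) and lowest to highest member (grey line) of 27 gene lists, with the number of tested members in brackets and the median of all tested genes, 0.0029, as a dotted line. List medians run from -0.19 for muscle to 0.28 for adipocyte genes, and 0 of 299 listed genes passed the test.

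Of 6 genes on other chromosomes that were listed for separate levels between tumours or strains, 0 passed by limma and 0 had an unadjusted p under 0.05. D17H6S56E-5 of chromosome 17 was at 6.56, 7.48 and 10.28 log2 (lowest, median, highest) in the higher set and 6.64, 9.20 and 10.70 in the lower set. Its difference was -0.61 (95% interval -1.37 to 0.16), and both sets covered nearly its whole range. Sp100, a nuclear body protein gene of chromosome 1, gave 0.23 (-0.35 to 0.80), and Apobec3, a cytidine deaminase gene of chromosome 15, 0.08 (-0.23 to 0.39). Nnt, the mitochondrial transhydrogenase, gave 0.09 (-0.09 to 0.26), Glo1, a glyoxalase, -0.02 (-0.13 to 0.08) and Hc, complement C5, 0.04 (-0.08 to 0.16).

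Within the sets 2610507I01Rik still varied, and 3 of 18044 genes rose with that remaining variation (0.0166%), in a limma fit chosen after seeing the data. In this fit 3064 genes had an unadjusted p under 0.05. Pex26, a peroxisome assembly gene of chromosome 6, rose by 0.47 log2 per log2 (SE 0.09, adjusted p = 0.0135). Zfp456, a zinc finger gene of chromosome 13, rose by 0.52 (SE 0.10, adjusted p = 0.0279), and 1700054K19Rik of chromosome 6 by 0.22 (SE 0.04, adjusted p = 0.0279). Without mid60, mid79 and mid100 the slope of Zfp456 was 0.55 (adjusted p = 0.0437), while those of Pex26, 0.36, and 1700054K19Rik, 0.19, did not pass (adjusted p = 0.108 and 0.114 by limma). The count called was 3 there too, with 1709 at an unadjusted p under 0.05 by limma, but Zfp456 was the only gene called in both fits. On normal scores of ranks 0 genes passed by limma, with 2406 at an unadjusted p under 0.05. In the higher set alone 395 genes passed (2.19%), of which 281 rose with the level, and without mid79 0 did, with 1294 at an unadjusted p under 0.05. In the lower set alone 0 genes passed by limma, with 1183 at an unadjusted p under 0.05.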

How the data were processed

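The deposited values are log2 expression per probe set, which the authors made with RMA, per the submitters' processing notes. Those notes name mm8 with no role, and which RMA version was run is not stated in them. Because RMA equalizes arrays, it would hide a shift common to most genes. Array medians lay between 5.19 and 5.34, and 0 arrays were identical. The number of arrays limits the precision. Probe-level signals were not analysed here.

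The platform annotation gives 23521 of 34472 probe sets 1 gene, 1814 several and 9137 none. Identifiers of 23328 matched RefSeq. Each of 22180 genes was read by its probe set with the highest mean. A gene had to average at least 4.09 log2, the 25th percentile of probe set means, which left 18045 with 2610507I01Rik. Gene order came from RefSeq (GRCm38.p6) and placed 1465 others on chromosome 11 and 16436 on other chromosomes. Promoter windows of 3 genes were matched.

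Tumours were divided at 6.7 log2 of 2610507I01Rik and compared with limma 3.58.1 (lmFit and eBayes with trend), with Benjamini-Hochberg adjustment over all tested genes. The test was also run on simulated data with independent normal values for each gene and planted shifts. Those data hold no correlation between genes and no array that stands apart, so that run cannot show how such features affect the test. The division, the gene lists and the alternatives were chosen with earlier results of these data known. Genes were named by rule: the 10 nearest table genes on each side, called genes with the largest statistics, the 2 members of each list with the largest statistic, all members of 6 lists, and the 3 genes most like 2610507I01Rik. Genes around Sap30l and genes named for an extreme value were chosen after their values were seen. Zfp672, a chromosome 11 gene with 2 probe sets, gave 0.03 and 0.21 log2 in them. In the fit over all probe sets their unadjusted p values were 0.457 and 0.000192, and the adjusted ones 0.999 and 0.991, by limma. The comparison of genes read the probe set with 0.03, which has the higher mean, so the difference of 0.21 is not in its counts. R 4.3.3, mclust 6.1.1, Python 3.11.15, pandas 2.3.3 and matplotlib 3.10.9 were used.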

Additional observations from a re-analysis of the deposited data

Results flagged for a closer look

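Probe sets that name no gene were outside the comparison of genes, and 2 of them differed between the sets. Probe set 17248348 was higher by 2.31 log2 in the higher set. Probe set 17249962 differed by -0.584 log2. Without mid60, mid79 and mid100 the differences were 2.40 (adjusted p = 2.47e-05 by limma) and -0.59 (adjusted p = 0.00057 by limma).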

How the results depend on the processing

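Across 13 other settings (2 other filters on low values, 2 other choices of probe set, a second quantile normalization, normal scores of ranks, array weights, covariates for 4 cell types, 3 arrays left out, mid79, the 1 tumour near the threshold and also one of those 3 arrays, left out alone, a mixture split, the level as a continuous predictor and no variance trend) Sap30l passed in 13 of 13. In several of them its difference could not move. The mixture split gave the same sets, and Sap30l has 1 probe set, so the 2 other choices of probe set read the same values. The 2 other filters and the fit with no variance trend also leave the difference of a gene unchanged, and only its adjusted p can move. Its difference lay between 0.29 and 0.33 log2 in the settings that keep the scale. Over all 13 settings its adjusted p values lay between 7.15e-05 and 0.00405 by limma, the last on normal scores of ranks. The count of chromosome 11 genes called higher was 2 with no filter, when Lyrm7 was added, and 1 in the other settings. Among the 200 nearest tested genes on each side it was 1. That count was read from the main comparison and Sap30l lies in this window, so it could not move. The count of unlinked genes called was 0 in all 13 settings, with between 247 and 982 at an unadjusted p under 0.05 by limma (2.44% to 5.97%). Of 121 genes, those named by rule and those around Sap30l, 0 changed their side of the threshold in the settings that tested them, and the filter at the 50th percentile left 34 of them untested. Also, the sign of Erbb2, never called, turned without the 3 arrays and with array weights. On normal scores of ranks 0 probe sets without a gene name passed in either direction by limma, with 204 at an unadjusted p under 0.05. For the level within the sets the counts called were 0 on normal scores, 395 in the higher set alone, 0 there without mid79, and 0 in the lower set alone, against 3 in both sets. Without mid60, mid79 and mid100 the count in both sets was also 3, but not of the same genes. The cause was not tested. No paired analysis was possible because the tumours form 1 group with no shared replicate numbers. The number of tumours and signals near the bottom of the scale limit what could be seen.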
